A study of Mus musculus with 25 samples.

Results

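The comparison set the distal colon of 5 NEMOIEC-KO Il23a-/- mice against that of 5 NEMOIEC-KO mice, 10 of the 25 mouse RNA-sequencing libraries of the study, and was chosen by these genotype labels alone. All mice were 6 weeks old and on the C57BL/6 background. NEMOIEC-KO is the label of mice without NEMO (gene Ikbkg) in intestinal epithelial cells, and both groups carry this defect. NEMOIEC-KO Il23a-/- mice in addition lack p19, the product of Il23a. The study holds 5 libraries each of 3 further groups of the same age, strain and tissue, namely Nemofl/fl mice, which carry the floxed gene and no deletion, and NEMOIEC-KO mice labelled Il12b-/- or Il12a-/-. The labels give neither the Cre driver nor the build of the knockout alleles. Each library is 1 mouse, and error is the spread between the mice of a group.

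IL-23 is a cytokine made mainly by dendritic cells and macrophages from p19 and the p40 subunit (Il12b) that it shares with IL-12, whose other subunit is p35 (Il12a). It acts through Il23r and Il12rb1, Jak2, Tyk2 and Stat3 on T cells and innate lymphocytes, which then release IL-17A, IL-17F and IL-22. In the gut these act on the epithelium, where they switch on genes of antimicrobial defence, reactive oxygen production and repair. NEMO is the regulatory subunit of the kinase that activates NF-kB, and its loss in the intestinal epithelium is known to cause colitis.

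Expression is given as FPKM, in which fragment numbers are divided by gene length and library size. A gene is called where the two-sided limma test on log2(FPKM + 0.5) gave a Benjamini-Hochberg adjusted p below 0.05 over all 19266 genes tested, those with at least 0.2 FPKM in at least 5 of the 25 libraries. Fold changes are log2 differences on this scale, NEMOIEC-KO Il23a-/- minus NEMOIEC-KO, and understate the change of weakly expressed genes. The 2 groups differed in more than the Il23a label. Xist and Y-linked RNA read 4 of 5 Il23a-/- libraries and 1 of 5 NEMOIEC-KO libraries as female. Il23a-/- replicates 1 to 4 and NEMOIEC-KO replicates 1 and 2 carry the library code K002000079, Il23a-/- replicate 5 the code K002000080 and NEMOIEC-KO replicates 3 to 5 the code K002000081. Every Nemofl/fl library was read as male and carries the code K002000081. Relative depth lay between 0.697 (Il23a-/- replicate 5) and 1.15 over the 25 libraries, and mitochondrial genes held 2.84% to 8.52% of the FPKM in the Il23a-/- libraries and 2.97% to 11% in the NEMOIEC-KO libraries. Summed markers of the epithelium lay at 14951 to 18809 FPKM in the Il23a-/- and 15189 to 17174 FPKM in the NEMOIEC-KO libraries, and those of smooth muscle at 2071 to 5985 and 1891 to 5398 FPKM, so the tissue held mucosa and muscle in both groups.

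In mice labelled Il23a-/-, 4 protein-coding genes were called lower without overlap between the groups. Duox2 fell 3.44-fold, Steap4 4.38-fold, Nfkbiz 1.98-fold and Muc13 1.69-fold in the group means. Cbs and Coq8a, with functions in cysteine and coenzyme Q synthesis, rose by 1.01 and 0.84 on the log2 scale. Over all genes the difference was small: 16 genes were called (0.083%), 9 higher (0.0467%) and 7 lower (0.0363%) in the Il23a-/- libraries. An unadjusted p below 0.05 was reached by 2026 genes (10.5%), 1371 of them higher (7.12%) and 655 lower (3.4%). The libraries of the groups did not overlap for 390 genes (2.02%). The median log2 fold change was 0.03, and the 95% interval lay within -1 to 1 for 17848 genes (92.6%), so for most genes a 2-fold difference would lie outside the interval.

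**Figure D1:**
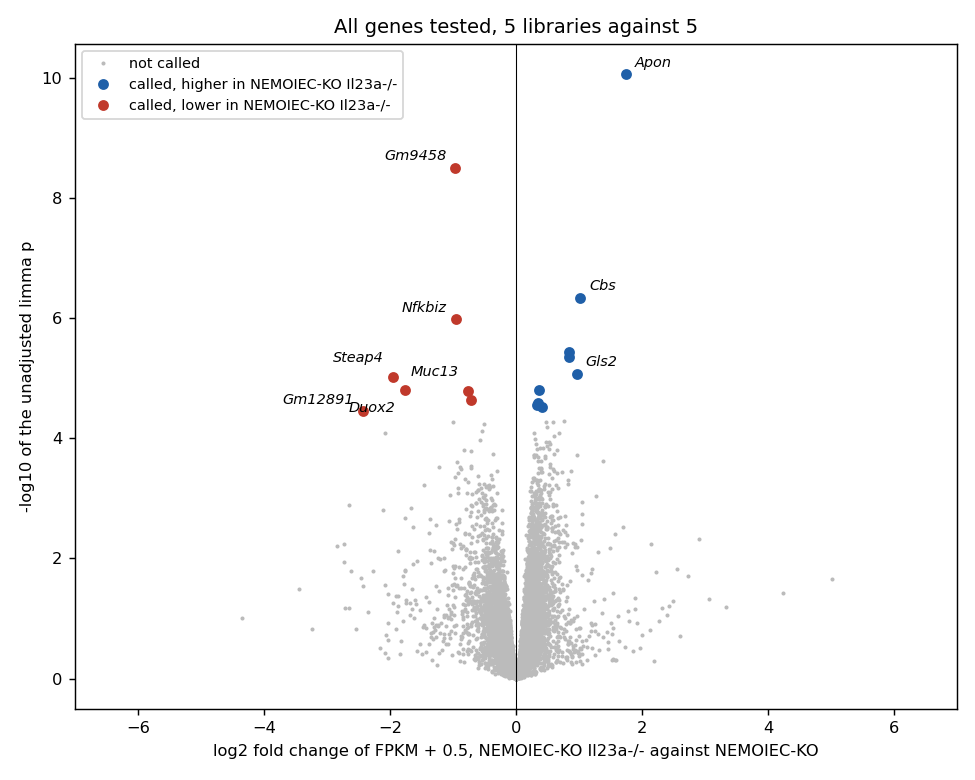
Each point is 1 of the 19266 genes tested. The horizontal axis gives the log2 fold change of FPKM + 0.5, NEMOIEC-KO Il23a-/- against NEMOIEC-KO (5 libraries each), and the vertical axis the -log10 of the unadjusted limma p. The 9 genes called higher (blue) and 7 called lower (red) stand above the rest, with Apon, Gm9458, Cbs and Nfkbiz at the smallest p and Steap4, Duox2 and Gm12891 at the largest decreases.

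The count of 16 depends on single libraries. It was 36, 10, 9, 6 and 15 without Il23a-/- replicate 1, 2, 3, 4 or 5, and 6, 6, 6, 29 and 6 without NEMOIEC-KO replicate 1, 2, 3, 4 or 5. With sex as a covariate 4 genes were called (Apon, Cbs and Coq8a higher, Gm9458 lower), and with the level of smooth muscle markers as a covariate 141, 77 higher and 64 lower, which hold all 16. Of the 15 smooth muscle markers, 11 were called lower in the NEMOIEC-KO than in the Nemofl/fl libraries (median log2 fold change -1.11). Whether this covariate also carries the degree of colitis was not tested. Among the libraries of code K002000079, 4 against 2, limma called 0 genes at an adjusted p below 0.05 and 1931 at an unadjusted p below 0.05. Median-of-ratios scaling and quantile normalization each gave 6 higher and 10 lower in place of 9 and 7.

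Duox2 encodes the dual oxidase that releases hydrogen peroxide at the apical surface of the gut epithelium. It measured 16.2, 14.4, 19.1, 24.3 and 17.4 FPKM in Il23a-/- replicates 1 to 5 and 59.9, 67.8, 70.4, 56.8 and 60.2 FPKM in NEMOIEC-KO replicates 1 to 5. The highest Il23a-/- library lay far under the lowest NEMOIEC-KO library, and the Nemofl/fl libraries (10.5 to 22.6 FPKM) overlapped the Il23a-/- libraries. Duox2 fell by 1.77 on the log2 scale (95% interval -2.45 to -1.10, limma adjusted p = 0.028). Its maturation factor Duoxa2 measured 8.49, 4.12, 7.58, 16.8 and 6.33 FPKM against 29.8, 39.1, 49.5, 25.2 and 35.3 FPKM, also without overlap, but was not called (log2 fold change -2.09, -2.99 to -1.19, adjusted p = 0.06). Duoxa1, the partner of the other dual oxidase, measured 3.17, 1.78, 4.09, 6.32 and 2.05 FPKM against 7.2, 9.9, 13.7, 9.3 and 9.02 FPKM (-1.46, adjusted p = 0.11). All 3 genes lie side by side on chromosome 2 (GRCm38), Duox2 at chr2:122279247-122298449, Duoxa2 at chr2:122298900-122302885 and Duoxa1 at chr2:122302191-122313730. Duoxa1 and Duoxa2 overlap, and reads of the shared stretch may not be told apart. Nos2, which encodes the inducible nitric oxide synthase, measured 15.8, 1.63, 4.09, 9.54 and 0.768 FPKM against 17.4, 43.9, 69.9, 9.41 and 37.0 FPKM. Its groups overlapped and it was not called (-2.66, adjusted p = 0.13). With the smooth muscle level as a covariate Duoxa2, Duoxa1 and Nos2 were called too, at log2 fold changes of -2.23, -1.59 and -2.89 (adjusted p = 0.0029, 0.013 and 0.027). Over the alternatives their adjusted p ran from 0.0029 to 0.32, 0.013 to 0.5 and 0.027 to 0.49.

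**Figure D2:**
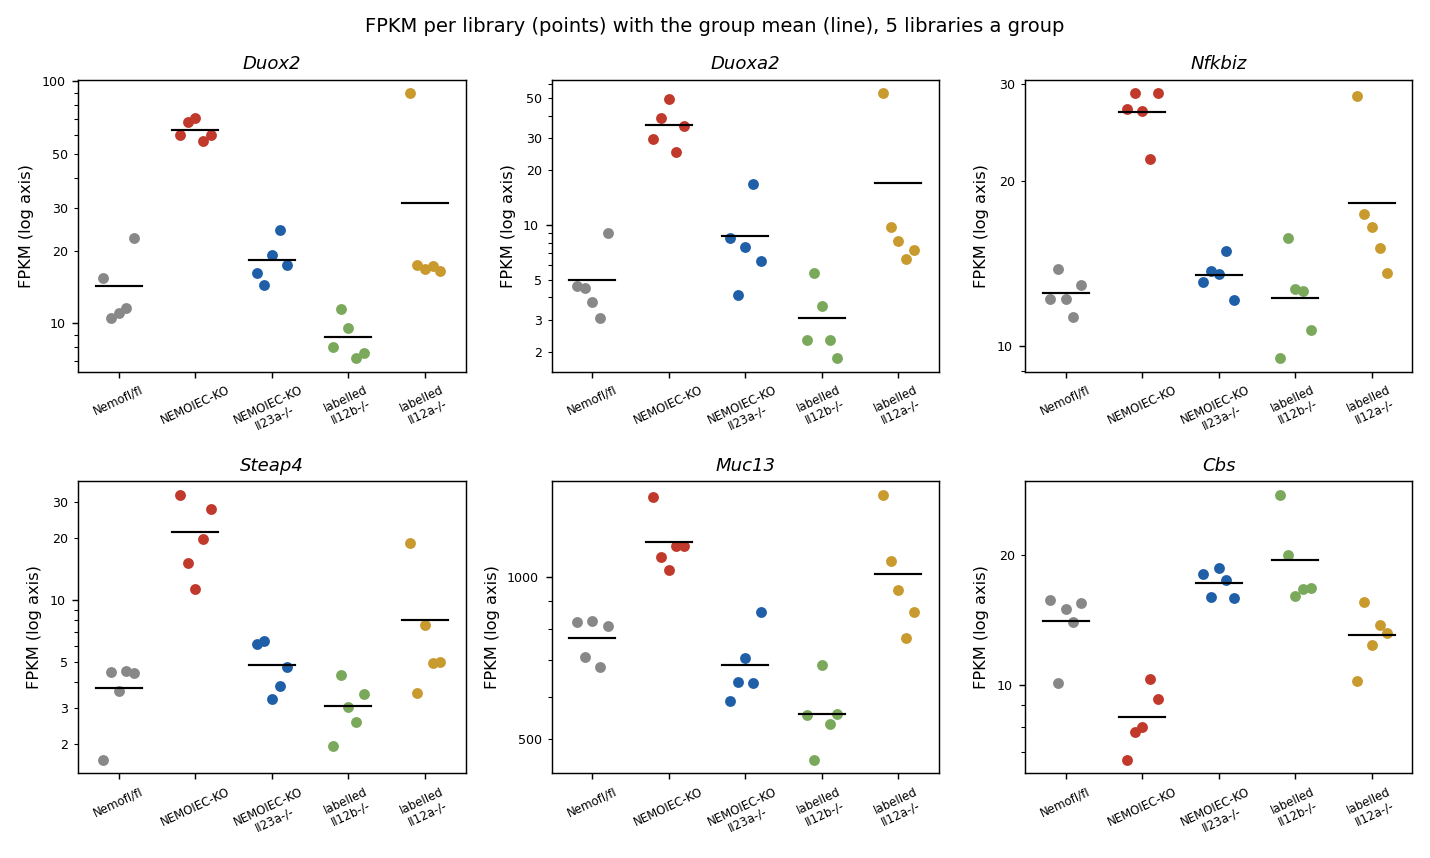
FPKM (log axis) of Duox2, Duoxa2, Nfkbiz, Steap4, Muc13 and Cbs in each of the 25 libraries, with points for libraries and a line at the mean of the 5 libraries of a genotype. For the first 5 genes the NEMOIEC-KO libraries lie above every NEMOIEC-KO Il23a-/- library, for Cbs below every one, and replicate 1 of the libraries labelled Il12a-/- is the highest of its group in the first 5.

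The 250 bases before the RefSeq start of 4 of these genes were searched (GRCm38.p6, 5′ to 3′ on the strand of the gene). Those of Steap4 and Muc13, which were called lower, and of Duoxa2, which starts head to head with Duox2, are shown. The windows, on the plus strand, are chr2:122298650-122298899 for Duoxa2, chr5:7960222-7960471 for Steap4 and chr16:33793787-33794036 for Muc13. Capitals mark matches, on either strand, to the STAT motif TTCNNNGAA or to the NF-kB motif, which overlap nowhere here.
Duoxa2: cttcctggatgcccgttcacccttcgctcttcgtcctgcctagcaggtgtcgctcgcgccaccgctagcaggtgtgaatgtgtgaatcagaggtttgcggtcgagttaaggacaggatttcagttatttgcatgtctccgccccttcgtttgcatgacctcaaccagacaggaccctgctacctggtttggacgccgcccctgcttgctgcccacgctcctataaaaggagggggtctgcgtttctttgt
Steap4: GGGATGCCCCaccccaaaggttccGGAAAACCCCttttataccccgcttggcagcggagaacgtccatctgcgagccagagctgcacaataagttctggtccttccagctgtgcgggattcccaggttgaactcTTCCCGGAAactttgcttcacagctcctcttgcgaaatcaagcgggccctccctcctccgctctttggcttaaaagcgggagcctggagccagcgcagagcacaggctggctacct
Muc13: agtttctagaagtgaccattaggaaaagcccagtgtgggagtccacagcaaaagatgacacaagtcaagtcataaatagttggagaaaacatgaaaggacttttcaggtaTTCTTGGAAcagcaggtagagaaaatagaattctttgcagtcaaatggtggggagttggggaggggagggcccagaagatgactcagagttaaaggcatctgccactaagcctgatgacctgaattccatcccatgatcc
The Steap4 window holds 1 STAT match and 2 NF-kB matches, the Muc13 window shown 1 STAT match, and the Duoxa2 window 0 of either. A second RefSeq start of Muc13, with the window chr16:33794239-33794488, holds 0 of either. The Duox2 window (chr2:122298228-122298477, minus strand) holds 0 of either, but RefSeq starts Duox2 further in, and 222 of these bases lie inside the gene as placed above, so it is not shown. The Steap4 window reaches 15 bases into its gene. Of all 32851 windows of this length, 2306 (7.02%) hold a STAT match, 2382 (7.25%) an NF-kB match and 164 (0.499%) both. A match is a run of letters and no measured binding.

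Nfkbiz encodes I-kappa-B-zeta, a nuclear cofactor of NF-kB that IL-17 induces and needs for many of its targets. It measured 13.1, 13.7, 13.5, 14.9 and 12.1 FPKM in Il23a-/- replicates 1 to 5 and 27.0, 28.9, 26.8, 21.9 and 28.9 FPKM in NEMOIEC-KO replicates 1 to 5. Every Il23a-/- library lay below every NEMOIEC-KO library and near the Nemofl/fl libraries (11.3 to 13.8 FPKM). Nfkbiz fell by 0.96 on the log2 scale (95% interval -1.26 to -0.66, limma adjusted p = 0.0049), a ratio of means of 1.98, and was called in all 10 fits that leave out 1 library, where Duox2 was called in 2, Muc13 in 3 and Steap4 in 6. Zc3h12a encodes Regnase-1, an endonuclease that degrades cytokine mRNA and limits IL-17 signalling. It measured 14.7, 15.6, 19.3, 22.1 and 14.9 FPKM against 25.7, 38.1, 38.7, 24.9 and 40 FPKM, without overlap and not called (-0.92, adjusted p = 0.098). It was called with the smooth muscle covariate (-0.98, adjusted p = 0.022; range over alternatives 0.022 to 0.43).

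Steap4, a metalloreductase of iron and copper, measured 6.13, 6.31, 3.31, 3.84 and 4.72 FPKM against 32.4, 15.2, 11.3, 19.8 and 27.7 FPKM. It fell by 1.96 on the log2 scale (-2.68 to -1.25, adjusted p = 0.023), from a mean of 21.3 ± 8.73 FPKM (SD, n = 5) to 4.86 ± 1.34 FPKM. Muc13, a transmembrane mucin of the apical surface, measured 588, 638, 706, 635 and 861 FPKM against 1405, 1088, 1029, 1139 and 1139 FPKM. Neither gene overlapped between the groups, and Nemofl/fl libraries held 1.68 to 4.56 FPKM of Steap4 and 680 to 827 FPKM of Muc13. Muc13 fell by 0.76 (-1.05 to -0.47, adjusted p = 0.028). The other called decreases were Strc, which encodes stereocilin of the inner ear and averaged 0.435 ± 0.207 against 1.04 ± 0.307 FPKM (-0.72, adjusted p = 0.037, with overlap), and 2 processed pseudogenes, whose reads may come from other copies. Gm9458 measured 0.0352 FPKM in Il23a-/- replicate 1 and is listed at 0 in the other 4, against 0.515, 0.674, 0.542, 0.555 and 0.223 FPKM. Gm12891 is listed at 0 in Il23a-/- replicates 2, 3 and 5 and overlapped between the groups.

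The calls of Duox2, Nfkbiz, Steap4 and Muc13 were lost with sex as a covariate (adjusted p = 0.13, 0.051, 0.13 and 0.13) while the log2 fold changes were -1.75, -0.90, -1.60 and -0.70. The female NEMOIEC-KO library, replicate 3, held 70.4 FPKM of Duox2 and 26.8 FPKM of Nfkbiz, and the male Il23a-/- library, replicate 2, held 14.4 and 13.7 FPKM. For Steap4 this female library was the lowest of its group and this male library the highest of its group. For Muc13 the female library was the lowest of its group and the male library lay in the middle of its group. A part of sex in these decreases was not tested beyond the covariate fit. Within library code K002000079 the log2 fold changes were -1.78, -0.99, -2.12 and -0.95 (adjusted p = 0.3, 0.27, 0.28 and 0.26). Over all 23 alternatives the adjusted p ran from 0.00063 to 0.3 for Duox2, 0.00074 to 0.27 for Nfkbiz, 0.0045 to 0.28 for Steap4 and 0.013 to 0.26 for Muc13.

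Among the genes that rose, Cbs encodes cystathionine beta-synthase, which makes cystathionine from homocysteine. It measured 18.1, 16.0, 18.7, 17.5 and 15.9 FPKM in Il23a-/- replicates 1 to 5 and 6.7, 7.78, 7.99, 10.3 and 9.28 FPKM in NEMOIEC-KO replicates 1 to 5. The lowest Il23a-/- library stood above the highest NEMOIEC-KO library, and the Nemofl/fl libraries lay between 10.1 and 15.7 FPKM. Cbs rose by 1.01 (95% interval 0.71 to 1.30, limma adjusted p = 0.0029) and kept its call with sex as a covariate (0.86, adjusted p = 0.038; range over alternatives 0.0022 to 0.19). Coq8a, an atypical kinase needed for coenzyme Q synthesis, measured 12.0, 12.0, 10.2, 10.5 and 11.6 FPKM against 6.47, 6.16, 4.81, 6.32 and 6.73 FPKM. It rose by 0.84 (0.55 to 1.13, adjusted p = 0.014), to a level still under the Nemofl/fl libraries (20.2 to 24.8 FPKM).

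Smaller increases were called for 4 more genes. Eci1, an isomerase of fatty acid beta-oxidation, averaged 31.5 ± 2.44 against 23.6 ± 1.91 FPKM (0.41, adjusted p = 0.039). Hsd17b10, a mitochondrial dehydrogenase of isoleucine breakdown, averaged 68 ± 2.93 against 53.4 ± 3.27 FPKM (0.35, adjusted p = 0.038). Poldip2 averaged 32.8 ± 2.29 against 26 ± 2.47 FPKM (0.33, adjusted p = 0.039), and 1 further gene is an uncharacterised Rik clone. These 4 did not overlap between the groups. Their calls were not stable: of 23 alternatives, Eci1 kept its call in 8, Hsd17b10 in 9, Poldip2 in 10 and the Rik clone in 8. All 4 calls were lost with sex as a covariate (limma adjusted p = 0.16, 0.16, 0.13 and 0.13). Under quantile normalization they were lost too (limma adjusted p = 0.089, 0.068, 0.074 and 0.053). Acsm3, a mitochondrial acyl-CoA synthetase, measured 72.7, 48.3, 54.0, 56.3 and 75.4 FPKM against 31.2, 36.7, 27.7, 36.9 and 48.0 FPKM, without overlap and not called (0.76, adjusted p = 0.052). Of the 28 genes tested of fatty acid oxidation and ketogenesis, 1 was called higher and 0 lower, with a median log2 fold change of 0.14. At an unadjusted limma p below 0.05, 10 were higher and 2 lower, beside 7.12% and 3.4% over all genes.

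The remaining 3 increases lie near Il23a itself (chr10:128296139-128298752). Apon, which encodes apolipoprotein N and starts 45 kb from the start of Il23a (chr10:128254096-128255896), measured 1.02, 2.97, 1.39, 1.76 and 0.993 FPKM in the Il23a-/- libraries and 0.0653, 0.141, 0.261, 0.0345 and 0.0509 FPKM in the NEMOIEC-KO libraries. Apon rose by 1.74 (1.42 to 2.06, limma adjusted p = 1.7e-06), a ratio of means of 14.7, and no library of the other 4 genotypes exceeded 0.261 FPKM. Its SD was 0.814 FPKM in the Il23a-/- and 0.0936 FPKM in the NEMOIEC-KO libraries, while the fit shares 1 error over all groups. Over the alternatives its limma adjusted p ran from 4.2e-08 to 0.028, the latter with only the 10 libraries in the fit. Gls2, the liver-type glutaminase, 104 kb away (chr10:128194457-128210004), measured 1.85, 1.31, 1.45, 1.78 and 2.09 FPKM against 0.918, 0.492, 0.64, 0.46 and 0.652 FPKM (0.96, 0.61 to 1.30, adjusted p = 0.023). Atp23, a mitochondrial inner membrane peptidase gene 1397 kb away, measured 8.46, 5.95, 6.77, 6.87 and 6.72 FPKM against 2.67, 3.34, 4.4, 4.18 and 3.84 FPKM (0.84, 0.55 to 1.13, adjusted p = 0.014). None of the 3 overlapped between the groups. Within 10 Mb of Il23a, 3 of 130 genes tested were called higher and 0 lower, against 6 higher and 7 lower among the 19136 elsewhere. An unadjusted p below 0.05 was reached by 21 of the 130 (16.2%), beside 10.5% over all genes, and 10 of the 76 within 1 Mb (13.2%). Rnf41, a ubiquitin ligase gene 113 kb away, averaged 4.26 against 5.95 FPKM (-0.44, adjusted p = 0.11).

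**Figure D3:**
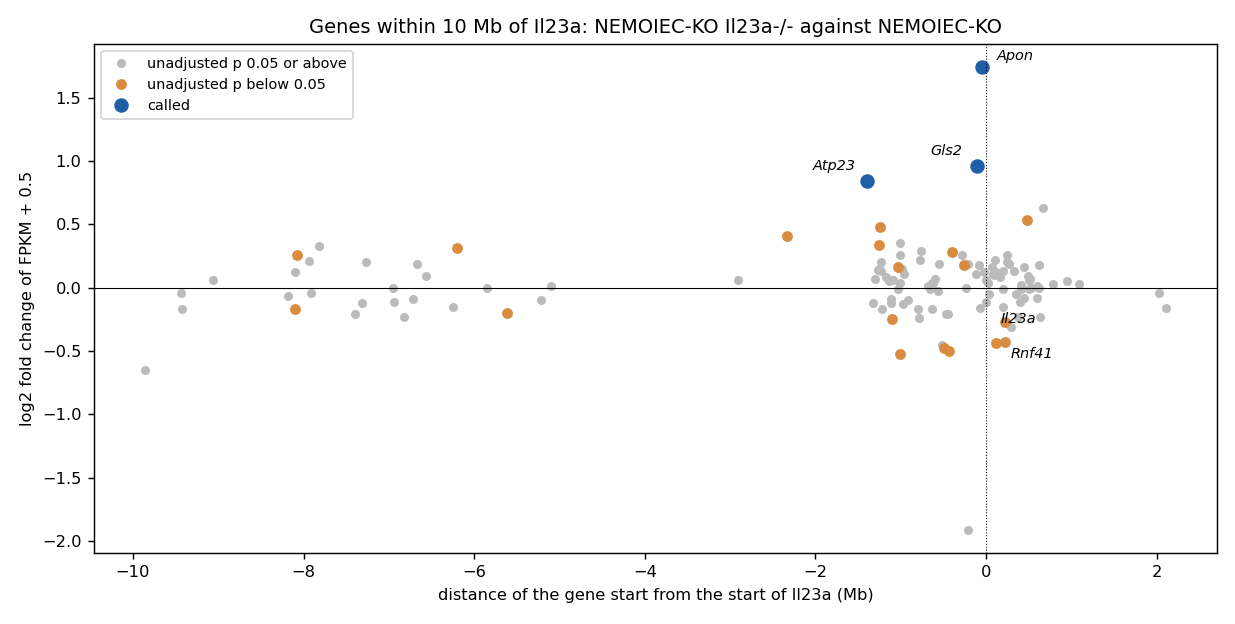
Log2 fold change (NEMOIEC-KO Il23a-/- against NEMOIEC-KO) of the 130 genes tested within 10 Mb of Il23a, by the distance of their start from that of Il23a in Mb. The called genes Apon, Gls2 and Atp23 (blue) are higher in the Il23a-/- libraries, and 18 more genes (orange) have an unadjusted p below 0.05 and lie on both sides of 0.

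Il23a RNA did not separate the groups. It measured 0.196, 0.262, 0.229, 0.15 and 0.232 FPKM in the libraries labelled Il23a-/- and 0.12, 0.422, 0.805, 0.127 and 0.0827 FPKM in the NEMOIEC-KO libraries (log2 fold change -0.11, -0.45 to 0.23, adjusted p = 0.9). The Nemofl/fl libraries held 0.117 to 0.343 FPKM. Whole-gene FPKM does not show whether part of a transcript is deleted, so it does not check this label. Ikbkg averaged 3.34 ± 0.383 FPKM in the Il23a-/- and 4.08 ± 1.1 FPKM in the NEMOIEC-KO libraries (-0.23, adjusted p = 0.56), and 8.27 to 11 FPKM in the Nemofl/fl libraries.

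The IL-23 pathway itself gave no call. Of 16 genes for its subunits, receptors and signalling, 14 were tested and limma called 0. At an unadjusted p below 0.05, 1 was lower and 0 higher, beside 3.4% and 7.12% over all genes. The 95% interval lay within -1 to 1 for 13 of the 14, with a median log2 fold change of -0.16. Il12b, Il23a and Il12a averaged under 0.5 FPKM in both groups, where the 0.5 added before the log narrows the intervals. For such genes the count does not show that FPKM was unchanged. Stat3, the transcription factor downstream of Il23r, measured 69.5, 49.8, 49.3, 54.8 and 40.1 FPKM against 62.7, 65.1, 68.1, 50.6 and 68.0 FPKM (-0.27, -0.50 to -0.04, adjusted p = 0.37). Il12b averaged 0.0909 ± 0.0288 against 0.171 ± 0.0799 FPKM (-0.18, adjusted p = 0.55), and Il12a 0.352 ± 0.0991 against 0.421 ± 0.313 FPKM (-0.06, adjusted p = 0.97). Il23r was below the filter, with at most 0.0428 FPKM in these 10 libraries.

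Il17a and Il22, the lymphocyte cytokines downstream of IL-23, were near or at 0 in the Il23a-/- libraries. Il17a was listed at 0, 0, 0.0628, 0.0447 and 0 FPKM in Il23a-/- replicates 1 to 5 and at 0.119, 0.13, 0.219, 0.201 and 0.271 FPKM in NEMOIEC-KO replicates 1 to 5. The groups did not overlap, and all 5 Nemofl/fl libraries were at 0. Il17a lay under the filter and was not tested. In the alternative fit without a filter, over 31239 genes, its log2 fold change was -0.40 (-0.53 to -0.26, limma adjusted p = 0.017). That fit shares 1 error over all groups, and the Nemofl/fl libraries add no spread to it. The interval and p of Il17a are therefore not those of the 2 compared groups alone. Il22 was listed at 0, 0, 0, 0.0476 and 0 FPKM against 0.0758, 0.158, 0.361, 0 and 0.262 FPKM, with overlap through NEMOIEC-KO replicate 4 (without a filter -0.37, adjusted p = 0.22). Il17f averaged 0.27 ± 0.0967 against 0.218 ± 0.0654 FPKM (0.10, adjusted p = 0.91). These levels are low and the depth in reads is unknown, so a listed 0 sets no upper limit.

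Of 24 genes of type 17 and innate type 3 lymphocytes, 18 were tested and limma called 0. At an unadjusted p below 0.05, 2 were lower and 0 higher, beside 3.4% and 7.12% over all genes. Ccl20, the ligand of Ccr6 that draws these cells, measured 0.951, 1.5, 1.47, 0.793 and 1.56 FPKM against 2.12, 4.24, 3.5, 2.59 and 3.5 FPKM (-1.07, -1.71 to -0.42, adjusted p = 0.16). Csf2, which encodes GM-CSF, measured 0.373, 0.0353, 0.0332, 0.107 and 0.0496 FPKM against 0.152, 0.654, 0.86, 0.122 and 0.629 FPKM (-0.62, adjusted p = 0.15). Only Ccl20, of these 2, had groups without overlap. In whole tissue, fewer cells of a type and less RNA per cell cannot be told apart.

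The list of epithelial genes known to respond to IL-22 and IL-17 leaned lower. It also holds receptor genes such as Il17ra and Il22ra1, and S100a8 and S100a9, which are on the neutrophil list too. The list was chosen with earlier results of these data known. Of 36 tested of 37, Duox2 and Nfkbiz were called lower and 0 higher, beside 0.0363% lower and 0.0467% higher over all genes. At an unadjusted limma p below 0.05, 12 were lower and 2 higher, beside 3.4% and 7.12% over all genes. The median log2 fold change was -0.57, beside 0.03 over all genes. The sign was negative for 32 of the 36. This was not particular to the list: it was negative for 38 of 41 interferon-gamma response, 27 of 30 wound-associated epithelium and 22 of 24 T cell genes. Among proliferation genes it was negative for 2 of 26. Of the 36, the groups did not overlap for 6, all lower, namely Duox2, Duoxa2, Nfkbiz, Zc3h12a, Clca4b and Bcl3. Over all 19266 genes tested, 118 were lower without overlap. Clca4b, a member of the calcium-activated chloride channel regulator family, measured 191, 33.1, 51.4, 278 and 25.4 FPKM against 593, 428, 720, 401 and 416 FPKM (-2.73, -4.78 to -0.68, adjusted p = 0.29). Bcl3, an atypical I-kappa-B protein, averaged 42.9 ± 4 against 58.9 ± 11.6 FPKM (-0.44, adjusted p = 0.42). Saa1, a serum amyloid A, measured 869, 2237, 1991, 1321 and 2346 FPKM against 5159, 3393, 1651, 3303 and 3777 FPKM (-0.98, adjusted p = 0.23). Reg4, a lectin of the crypt, went the other way in its mean, at 451 ± 161 against 253 ± 61 FPKM (0.77, adjusted p = 0.24).

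Other well-known targets on this list varied too much between mice to be placed. The antimicrobial lectin gene Reg3g measured 4.24, 0.333, 0.418, 0.861 and 0.365 FPKM against 1.59, 12.2, 97.1, 3.72 and 1.28 FPKM (-2.43, -4.58 to -0.28, adjusted p = 0.4). Lcn2, which encodes the iron-scavenging lipocalin 2, measured 36.3, 1.32, 9.14, 19.9 and 2.5 FPKM against 1.47, 21.8, 43.1, 4.31 and 11.3 FPKM (-0.29, -1.79 to 1.21, adjusted p = 0.95). S100a8 ranged from 0.308 to 168 FPKM against 4.14 to 196 FPKM (-1.22, -4.02 to 1.58, adjusted p = 0.85). Only 12 of the 36 intervals lay within -1 to 1, so differences of more than 2-fold remained possible for most of the list. Of this list, 0 members were called with sex as a covariate and 5, all lower, with the smooth muscle covariate (Duox2, Duoxa2, Nfkbiz, Zc3h12a and Nos2). The count was 2 without Il23a-/- replicate 1 or NEMOIEC-KO replicate 4 and 1 without any other single library of the 2 groups. The median ran from -0.83 to -0.33 over the 23 alternatives.

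**Figure D4:**
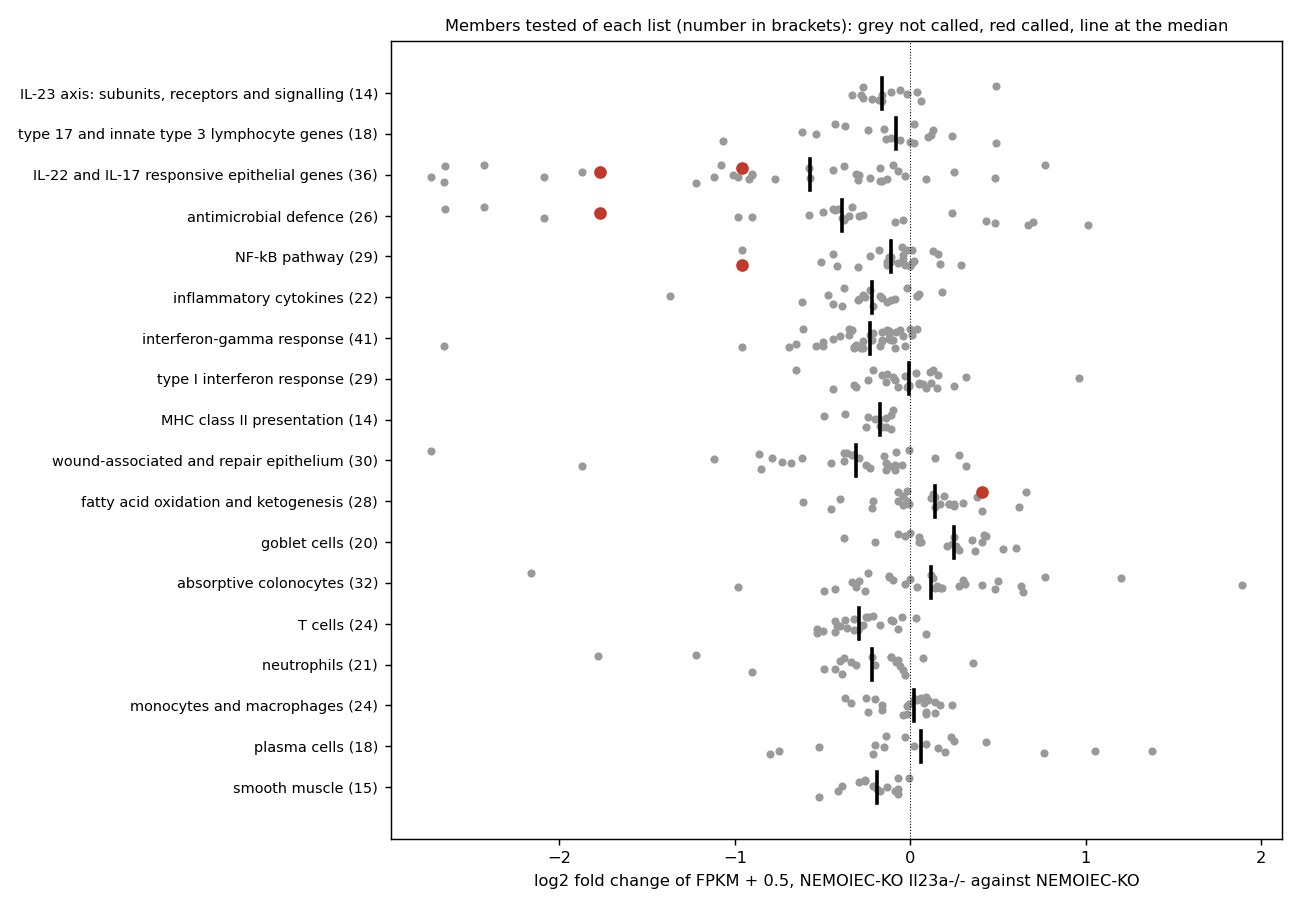
Log2 fold change (NEMOIEC-KO Il23a-/- against NEMOIEC-KO) of the tested members of 18 gene lists, with called members in red and a line at each median. The list of IL-22 and IL-17 responsive genes has the lowest median of those drawn (-0.57), and the medians of macrophages (0.02) and type I interferon response (-0.01) lie near 0.

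The interferon-gamma response, which includes antigen processing and guanylate-binding proteins, had no called member. Of 41 members tested, limma called 0, with a median of -0.23. At an unadjusted p below 0.05, 3 were lower and 0 higher, beside 3.4% and 7.12% over all genes. Against Nemofl/fl, 36 of the 41 were called higher in the same NEMOIEC-KO libraries (median 2.68), beside 2291 of all 19266 genes tested. Psmb10, an immunoproteasome subunit, averaged 410 ± 85.2 against 410 ± 96.1 FPKM (0.00, -0.35 to 0.36, adjusted p = 1). Ido1, the tryptophan-degrading enzyme, measured 453, 38.4, 59.7, 437 and 36.7 FPKM against 65.8, 331, 623, 86.9 and 118 FPKM (-0.61, -2.26 to 1.04, adjusted p = 0.88). Ifng itself measured 3.5, 0.172, 0.242, 1.62 and 0.119 FPKM against 0.114, 4.54, 4.12, 0.146 and 2.16 FPKM (-0.65, adjusted p = 0.75). Only 22 of the 41 intervals lay within -1 to 1.

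Both groups were mixed in this program. The mean log2 level of the 41 members was 5.67, 4.17, 4.16, 5.25 and 3.89 in Il23a-/- replicates 1 to 5 and 4.42, 5.43, 5.59, 4.21 and 5.09 in NEMOIEC-KO replicates 1 to 5, against 2.28 to 2.5 in the Nemofl/fl libraries. Il23a-/- replicate 1 held the highest level of all 10 and 16.2 FPKM of Duox2. NEMOIEC-KO replicate 4 held 4.21 on this scale and 56.8 FPKM of Duox2. The level of the IL-22 and IL-17 responsive list was 4.53, 3.00, 3.87, 4.21 and 2.93 in the Il23a-/- libraries and 3.80, 4.94, 5.45, 3.93 and 4.38 in the NEMOIEC-KO libraries, with overlap. Smooth muscle markers ran from 5.28 (Il23a-/- replicate 1) to 6.92 (Il23a-/- replicate 2) and from 5.17 (NEMOIEC-KO replicate 3) to 6.71 (NEMOIEC-KO replicate 1), and all 15 were tested with none called and 5 intervals within -1 to 1.

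**Figure D5:**
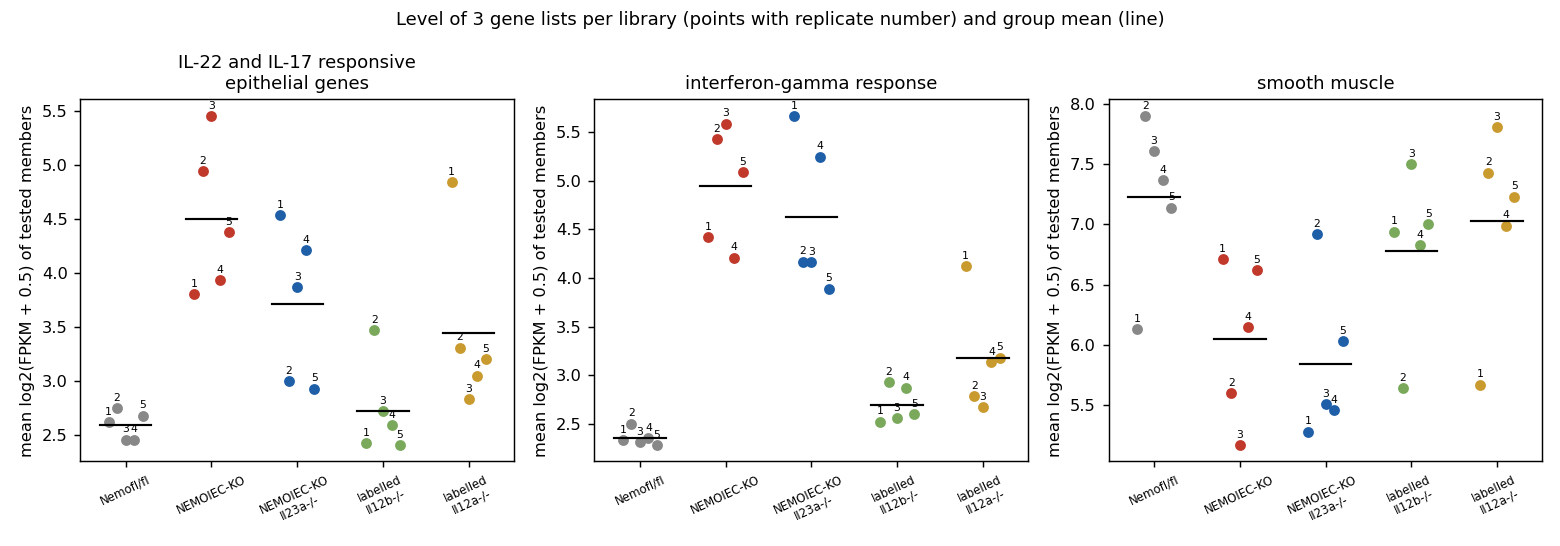
Mean log2(FPKM + 0.5) of the tested members of 3 lists in each library, with points numbered by replicate and a line at the group mean. The NEMOIEC-KO and NEMOIEC-KO Il23a-/- libraries overlap in all 3, and both spread wider than the Nemofl/fl libraries in the first 2, where the lowest of their 10 libraries (2.93 and 3.89) lie above every Nemofl/fl library.

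Markers of other cell types showed no called member. T cell genes had a median of -0.29 over 24 tested and neutrophil genes -0.22 over 21, of which only 4 intervals lay within -1 to 1. The neutrophil median ran from -0.77 to 0.45 over the 23 alternatives. Ly6g, on the neutrophil list, measured 397, 423, 405, 389 and 363 FPKM against 655, 430, 587, 439 and 725 FPKM, without overlap (-0.49, -0.80 to -0.18, adjusted p = 0.18). It averaged 342 ± 63.1 FPKM in the Nemofl/fl libraries, where S100a9, an abundant neutrophil gene, averaged 1.38 ± 1.5 FPKM, so its level did not follow the rest of the list. Monocyte and macrophage genes had a median of 0.02 over 24 and 21 intervals within -1 to 1, and plasma cell genes 0.06 over 18, and both medians changed sign among the alternatives. Goblet cell genes had a median of 0.25 over 20. Creb3l1, a membrane-bound transcription factor of secretory cells, measured 108, 100, 114, 85.8 and 96.1 FPKM against 54.8, 71.1, 60.2, 72.6 and 73.4 FPKM, without overlap (0.60, adjusted p = 0.079). In these lists limma called 0 genes. At an unadjusted p below 0.05, 1 T cell, 3 neutrophil and 1 plasma cell gene were lower and 2 goblet cell genes higher. Of the macrophage genes 0 reached it. Over all genes 3.4% were lower and 7.12% higher at that threshold.

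Tumour necrosis factor and related cytokines were likewise not called. Of 22 inflammatory cytokine genes tested, limma called 0. At an unadjusted p below 0.05, 4 were lower and 0 higher, beside 3.4% and 7.12% over all genes. Tnf measured 3.32, 0.76, 0.999, 1.64 and 0.687 FPKM against 2.56, 8.75, 9.93, 1.53 and 3.02 FPKM (-1.37, -2.19 to -0.55, adjusted p = 0.15). Il18, an epithelial cytokine of the IL-1 family, measured 68.3, 79.4, 101, 76.0 and 94.0 FPKM against 138, 107, 95.1, 137 and 103 FPKM (-0.47, adjusted p = 0.15). Both overlapped between the groups. MHC class II genes had a median of -0.17 over 14 tested, all with a negative sign and 12 with an interval within -1 to 1. Cd74, the invariant chain, averaged 3086 ± 570 against 3476 ± 596 FPKM (-0.18, adjusted p = 0.9), and 185 to 333 FPKM in the Nemofl/fl libraries.

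The loss of p19 was also set against the loss of the partner subunits on the same background, which shares the Il23a-/- libraries with the comparison above. Against the libraries labelled Il12b-/-, 372 genes were higher (1.93%) and 613 lower (3.18%) in the Il23a-/- libraries. Against those labelled Il12a-/-, 147 were higher (0.763%) and 77 lower (0.4%). Which direction held more calls depended on single libraries. By RNA, Il12b-/- replicates 1 and 2 and Il12a-/- replicates 2 and 5 were read as female and the rest of these groups as male. All carry the library code K002000079. Smooth muscle markers had median log2 fold changes of -0.91 and -1.20 in these comparisons, and B cell markers -0.97 and -1.23. Neither sex nor the smooth muscle level was used as a covariate here, so what they add to the calls was not tested. Whole-gene RNA went against both labels, so directions are those of the labelled libraries: Il12b had a median of 0.946 FPKM in the libraries labelled Il12b-/- and Il12a one of 0.937 FPKM in those labelled Il12a-/-, both above the Il23a-/- libraries. Of the 41 interferon-gamma response genes, 32 were called higher in the Il23a-/- than in the libraries labelled Il12b-/- (median 1.96) and 26 higher than in the libraries labelled Il12a-/- (median 1.41). Psmb10 was 1.41 and 0.85 higher on the log2 scale (limma adjusted p = 2.7e-05 and 0.013), Cd74 2.86 and 1.98 higher (adjusted p = 4.8e-07 and 0.00016), and Ido1 5.62 and 4.61 higher (adjusted p = 0.00017 and 0.0035). Of the IL-22 and IL-17 responsive genes, 3 were called higher than in the libraries labelled Il12b-/- (9 without Il12b-/- replicate 2, 8 without Il23a-/- replicate 2, 8 higher and 1 lower without Il23a-/- replicate 5, and 0 without any other library of the 2 groups). Against the libraries labelled Il12a-/-, 1 was called lower. That became 2 higher and 3 lower without Il12a-/- replicate 1, 1 higher and 1 lower without Il23a-/- replicate 2 or 5, 1 lower without Il12a-/- replicate 3, and 0 without any other library. Duox2 measured 7.17 to 11.5 FPKM in the libraries labelled Il12b-/- (log2 fold change 1.02, adjusted p = 0.066) and had a median of 17.3 FPKM, with 1 library at 89.6 FPKM, in the libraries labelled Il12a-/- (-0.39, adjusted p = 0.52). Nfkbiz differed by 0.15 and -0.38 (adjusted p = 0.53 and 0.16).

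These 2 comparisons also depend on single libraries. The 985 calls against Il12b-/- became 365, 2710, 486, 438 and 385 without Il12b-/- replicates 1 to 5 in turn, 414, 456, 325 and 2053 without Il23a-/- replicates 1, 3, 4 and 5, and 824 (445 higher, 379 lower) under median-of-ratios scaling. The 224 calls against Il12a-/- became 2672, 64, 75, 118 and 78 without Il12a-/- replicates 1 to 5, and 85, 568, 82 and 445 without Il23a-/- replicates 1, 2, 4 and 5. Lower calls then outnumbered higher ones without Il12a-/- replicate 1 (733 higher, 1939 lower) and without Il23a-/- replicate 2 (276 higher, 292 lower). Against Il12b-/-, higher calls outnumbered lower ones without Il12b-/- replicate 1 (196 and 169), 4 (226 and 212) or 5 (215 and 170) and without Il23a-/- replicate 3 (256 and 200) or 4 (187 and 138). Of the 26 interferon-gamma response genes called against Il12a-/-, 9, 9, 14 and 11 were called without Il12a-/- replicates 2, 3, 4 and 5 and 10 and 9 without Il23a-/- replicates 1 and 4. Of the 32 called against Il12b-/-, between 26 and 34 were called without any 1 library of either group. Near Il23a, Apon was 1.84 and 1.79 higher than in the libraries labelled Il12b-/- and Il12a-/- (adjusted p = 1.5e-07 and 1.4e-07), Gls2 0.69 and 0.76 higher (adjusted p = 0.022 and 0.025), Atp23 0.45 and 0.60 higher (adjusted p = 0.061 and 0.038), and Rnf41 differed by -0.74 and -0.75 (adjusted p = 0.00033 and 0.00071).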

How the data were processed

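RNA of distal colon was sequenced from 25 mice, 5 per genotype, after poly(A) selection with a stranded kit, per the labels' protocols. The authors deposited 1 table of FPKM for 49452 gene identifiers, 49195 of them with a symbol and position in a GRCm38 annotation. TopHat2 2.0.10, Cufflinks 2.1.1, DESeq2 1.10.1 and GRCm38 were used per the submitters' processing notes; which program made the FPKM is not given in the sources used here. Read counts were not used here, so absolute depth is unknown, and only depth relative to other libraries was estimated, from the step size between low FPKM values.

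FPKM were transformed to log2(FPKM + 0.5). All 25 libraries entered 1 limma 3.58.1 model under R 4.3.3 with 1 mean per genotype, a trend in the prior variance and 20 residual degrees of freedom. P-values were two-sided and adjusted over the 19266 genes tested. The fit was tested on simulated data. Named genes are the targeted genes, every called gene with a symbol (predicted genes and Rik clones are only counted), from each of 44 gene lists the 2 most abundant members and the 2 with the smallest p, and the 6 largest increases and 6 largest decreases not called (unadjusted p below 0.05, no overlap, at least 1 FPKM in the higher group). Other named members of the IL-23, type 17, IL-22 and IL-17 and interferon-gamma lists, the genes named for a covariate fit, the pseudogenes Gm9458 and Gm12891, Rnf41, Lrmp and Stom were chosen after their values were seen. The comparison, the lists and the tests were chosen with earlier results of these data known. Lists are described by counts and medians, with no test of a list. Alternatives changed the pseudocount, filter, scaling, prior, libraries and covariates, used the replicate number as a block, or left out 1 library. Some genes that the rule names are not reported here.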

Additional observations from a re-analysis of the deposited data

Results flagged for a closer look

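In 354 groups of 5 libraries, 25 single values lay apart from the other 4 by Dixon's criterion (gap over range above 0.71), where chance alone gives about 1 in 20. NEMOIEC-KO replicate 3 held 8 of them and Il23a-/- replicate 2 held 7. Both are the libraries whose sex differs from that of their group. NEMOIEC-KO replicate 3 held 80.9 FPKM of Xist, 0.115 of Eif2s3y, 0.0457 of Uty, 0.0348 of Ddx3y and 53.6 of Eif2s3x, and Il23a-/- replicate 2 held 0.0279 FPKM of Xist, 27.5 of Eif2s3y, 2 of Uty and 4.19 of Ddx3y.

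Among the genes that carry the comparison, Nfkbiz stood lowest in NEMOIEC-KO replicate 4 (21.9 FPKM), which is nearer to the Il23a-/- libraries than the other 4. Eci1 was highest in NEMOIEC-KO replicate 4 (27 FPKM), Coq8a was lowest in NEMOIEC-KO replicate 3 (4.81 FPKM), and Gm9458 was above 0 in Il23a-/- replicate 1 alone of its group (0.0352 FPKM). Of the IL-23 and type 17 genes, Stat3 was lowest in NEMOIEC-KO replicate 4 (50.6 FPKM) and Csf2 highest in Il23a-/- replicate 1 (0.373 FPKM).

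The other single values were Pigr at 468 FPKM and Tac1 at 64 FPKM in NEMOIEC-KO replicate 3, Plk1 at 9.97 FPKM in NEMOIEC-KO replicate 1, Prss2 at 4.85 FPKM in NEMOIEC-KO replicate 2, and Ighd at 2.9 FPKM and Prdm1 at 2.62 FPKM in NEMOIEC-KO replicate 4. In the Il23a-/- libraries they were Cd74 at 2082 FPKM, Trbc2 at 4.86 FPKM and Plvap at 19.5 FPKM in replicate 2, and Psmb10 at 268 FPKM in replicate 5.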

How the results depend on the processing

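None of the 16 called genes changed sign under the alternatives run, but list medians did: over the alternatives that of neutrophils ran from -0.77 to 0.45, plasma cells -0.20 to 0.21, monocytes and macrophages -0.25 to 0.17, type I interferon response -0.15 to 0.11 and proliferation -0.10 to 0.56. For NEMOIEC-KO Il23a-/- against NEMOIEC-KO, the 16 calls became 0 within library code K002000079 (4 against 2 libraries), 9 with only the 10 libraries in the fit (7 of them shared with the 16), 4 with sex as a covariate, 141 with the smooth muscle level as a covariate and 6 to 36 when 1 library was left out. It stayed within 1.5 times of 16 under other pseudocounts, filters, scalings and priors. Against the libraries labelled Il12b-/- the 985 calls became 561 without a filter and 325 to 2710 without 1 library, and against those labelled Il12a-/- the 224 calls became 132 without a filter and 64 to 2672 without 1 library. The cause was not tested beyond what each alternative removes or adds. Apon and Gm9458 were called in all alternatives that tested them (21 and 16). Of 23 alternatives, Cbs was called in 22, Nfkbiz and Coq8a in 21, Atp23 in 18, Steap4 in 16 and Gls2 in 14. Muc13 was called in 13, Duox2 in 12, Poldip2 in 10, Hsd17b10 and Gm12891 in 9, and Eci1 and the Rik clone in 8. Strc was called in 9 of 22.

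The replicate numbers do not pair the mice. The correlation of same-numbered Il23a-/- and NEMOIEC-KO libraries, as deviations from their group means, was -0.310, -0.171, -0.025, -0.196 and 0.059, and 0 libraries correlated best with their own number. With the replicate number as a block 8 genes were called. Depth in reads is unknown and 5 mice a group limit precision: the median standard error of a log2 fold change was 0.145.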

Other observations

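Several further genes lay without overlap between the groups and short of the threshold. Lrmp measured 50.1, 47.8, 49.9, 47.8 and 38.6 FPKM in Il23a-/- replicates 1 to 5 and 102, 84.2, 117, 93.1 and 80.9 FPKM in NEMOIEC-KO replicates 1 to 5 (limma log2 fold change -1.01, adjusted p = 0.052). Stom, which encodes the membrane protein stomatin, measured 81.7, 69.9, 71.0, 103 and 72.6 FPKM against 144, 134, 169, 122 and 136 FPKM (-0.83, adjusted p = 0.076). Plet1, of the wound-associated epithelium list, measured 2.44, 1.45, 6.38, 3.3 and 2.44 FPKM against 8.65, 36.4, 57.1, 14.1 and 19.5 FPKM (-2.73, adjusted p = 0.22). In each of the 3 every Il23a-/- library lay below every NEMOIEC-KO library. Hid1 averaged 51.4 ± 6.71 against 31.9 ± 3.75 FPKM (0.68, adjusted p = 0.06) and Tspan33 7.49 ± 0.729 against 4.15 ± 0.497 FPKM (0.78, adjusted p = 0.17), with every Il23a-/- library above. Lrmp and Stom were chosen after their values were seen.

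With the level of smooth muscle markers as a covariate, 77 genes were called higher, of which 4 are given here. Idh3b, a subunit of isocitrate dehydrogenase, averaged 122 ± 9.13 against 100 ± 4.54 FPKM (0.28 in that fit, limma adjusted p = 0.029). Suclg1, a subunit of succinyl-CoA ligase, averaged 162 ± 18.2 against 129 ± 8.52 FPKM (0.31, adjusted p = 0.035). Acly, ATP citrate lyase, averaged 111 ± 14.8 against 78.6 ± 7.1 FPKM (0.47, adjusted p = 0.029), and Ahcy, which makes the homocysteine that Cbs uses, 39.7 ± 3.77 against 28.5 ± 2.54 FPKM (0.46, adjusted p = 0.029). The fatty acid oxidation list had 3 of 28 members called higher and 0 lower in that fit. Among the 64 called lower were Tnip3, an inhibitor of NF-kB signalling, at 15.5 ± 5.47 against 30.3 ± 10.4 FPKM (-1.14, adjusted p = 0.014), Rel, an NF-kB subunit, at 1.22 ± 0.228 against 1.96 ± 0.504 FPKM (-0.56, adjusted p = 0.038), and Casp8, the initiator caspase of death receptors, at 51.1 ± 12 against 66.1 ± 9.36 FPKM (-0.44, adjusted p = 0.048). These genes were chosen after their values were seen, and without the covariate their adjusted p lay between 0.052 and 0.4. Over all alternatives the highest adjusted p of these 7 genes lay between 0.26 (Acly and Ahcy) and 0.71 (Tnip3). Of 29 NF-kB pathway genes tested with the covariate, 3 were called lower (Nfkbiz, Tnip3 and Rel) and 1 higher. The median log2 fold change of these 29 was -0.14. The gene called higher was Tab1 (0.31, limma adjusted p = 0.043, range over alternatives 0.043 to 0.35). Cell proliferation genes had a median log2 fold change of 0.18 over 26 tested, 24 of them positive (range of the median over the alternatives -0.10 to 0.56), with 0 called by limma and 0 at an unadjusted p below 0.05.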
